A study of Mus musculus with 6 samples.

Results

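The tensins and the DLC RhoGAPs are a pair of gene families whose proteins meet at focal adhesions, and 7 of their genes were read here in RNA-Seq of TuBo mammary carcinoma cells. The members were taken by symbol from the 21960 genes of the deposited counts: tensins 1 to 4 (Tns1, Tns2, Tns3 and Tns4) and the tensin-binding DLC RhoGAPs (Dlc1, Stard8 and Stard13). Each symbol matched 1 gene. The families were singled out because Tns4 was far higher and Dlc1 nearly lost in p140Cap cells, so the differences between p140Cap and mock cells that follow are given for the members as a description with their errors, and no p-value is used in support of them.

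TuBo cells were established from a mammary tumor that arose in a BALB/c-MMTV-NeuT mouse, in which an activated Neu (HER2) oncogene is driven by the MMTV promoter. The control group held 3 mock libraries, whose genotype is labelled wt. The other group held 3 libraries of cells that overexpress p140Cap, an adaptor protein encoded by Srcin1, from a cDNA in the retroviral vector pBabe-puro. Transduced cells were selected with puromycin, grown as single-cell clones, and 4 clones were pooled. What the mock cells were transduced with is not stated in the sources used here, and p140Cap expression cannot be told apart from the derivation of the cells from few clones. The series text speaks of mice where the sample labels speak of cell lines, and whether replicates were separate cultures is not stated, so errors measure the spread between these libraries, which may be technical.

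Libraries held between 13770385 and 75506562 reads on genes, all mock libraries being larger than the p140Cap ones. Srcin1, the transduced gene, was at 15.0 ± 1.96 CPM (read counts scaled by the TMM-adjusted library size) in mock and 2343 ± 153 CPM in p140Cap libraries (SD, n = 3 each), in the direction of the labels. Of 8 epithelial marker genes, 7 were at 1 CPM or more in every library, and their sum was 5385 to 5735 CPM in mock and 6256 to 6437 CPM in p140Cap cells. Krt19 had at most 5 reads in a library. Of 6 haematopoietic markers, 5 had 0 reads in all libraries, Ptprc and Lyz2 among them. Endothelial markers summed to at most 0.734 CPM, with Kdr and Tie1 at 0 reads, and smooth muscle or myoepithelial markers to at most 0.659 CPM. Fibroblast markers summed to 9.97 to 10.5 CPM in mock and 11.3 to 14.1 CPM in p140Cap cells, with Col1a2, Col3a1, Dcn and Lum at 0 reads. These last sums came mostly from Col1a1 and Pdgfra.

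Tensins are adaptor proteins that bind the cytoplasmic tails of integrin β subunits and link them to actin filaments. All of them end in an SH2 domain and a PTB domain, but Tns4, also called Cten, lacks the long N-terminal part through which its relatives hold actin. In mammary epithelial cells, epidermal growth factor is known to replace Tns3 with Tns4, an exchange called the tensin switch. The DLC proteins are RhoGAPs, which stimulate GTP hydrolysis by RhoA and related GTPases and so turn them off. They bind the SH2 and PTB domains of tensins, which bring them to adhesions, and Dlc1 (deleted in liver cancer) is known as a tumor suppressor gene that many carcinomas silence.

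The members differ in size as well as in function. The canonical coding sequence in the GENCODE annotation was 696 codons long for Tns4, against 1400 for Tns2, 1589 for Tns3 and 1826 for Tns1, and it was 1019 codons for Stard8, 1113 for Stard13 and 1543 for Dlc1. On GRCm38.p6, the RefSeq form of the mm10 build named in the submitters' notes, Tns1 (ENSMUSG00000055322) lies on chromosome 1 from 73910232 to 74124548, Tns2 (ENSMUSG00000037003) on chromosome 15 from 102098475 to 102116401, Tns3 (ENSMUSG00000020422) on chromosome 11 from 8431652 to 8664758 and Tns4 (ENSMUSG00000017607) on the same chromosome from 99065678 to 99089306. Dlc1 (ENSMUSG00000031523) lies on chromosome 8 from 36567739 to 36953184, Stard8 (ENSMUSG00000031216) on chromosome X from 99002933 to 99074728 and Stard13 (ENSMUSG00000016128) on chromosome 5 from 151037515 to 151428200. All 7 are protein-coding. Srcin1 itself lies on chromosome 11, 1.49 Mb from Tns4.

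Promoter sequences of 5 of the 7 members were in the RefSeq table for GRCm38.p6, which gives 300 bases, from 250 before to 50 after a transcription start. Entries for Tns4 and Dlc1 were not in it. The 3 tensin promoters are shown because they differ in CpG content. They are written 5′ to 3′ on the strand of the gene, with each CG dinucleotide, the target of DNA methylation, in capitals.
Tns1, chr1:74124499-74124798, minus strand: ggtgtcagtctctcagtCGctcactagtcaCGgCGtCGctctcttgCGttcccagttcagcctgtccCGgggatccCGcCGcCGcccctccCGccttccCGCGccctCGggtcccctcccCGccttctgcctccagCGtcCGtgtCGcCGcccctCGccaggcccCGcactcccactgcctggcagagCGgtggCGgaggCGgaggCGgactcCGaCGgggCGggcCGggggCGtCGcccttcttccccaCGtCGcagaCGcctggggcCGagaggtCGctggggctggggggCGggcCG
Tns2, chr15:102102684-102102983, plus strand: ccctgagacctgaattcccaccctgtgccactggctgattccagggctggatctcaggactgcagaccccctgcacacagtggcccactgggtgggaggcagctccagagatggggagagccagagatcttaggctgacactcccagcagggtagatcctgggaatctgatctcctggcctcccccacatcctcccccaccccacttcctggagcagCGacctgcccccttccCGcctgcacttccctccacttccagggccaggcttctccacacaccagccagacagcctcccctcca
Tns3, chr11:8664486-8664785, minus strand: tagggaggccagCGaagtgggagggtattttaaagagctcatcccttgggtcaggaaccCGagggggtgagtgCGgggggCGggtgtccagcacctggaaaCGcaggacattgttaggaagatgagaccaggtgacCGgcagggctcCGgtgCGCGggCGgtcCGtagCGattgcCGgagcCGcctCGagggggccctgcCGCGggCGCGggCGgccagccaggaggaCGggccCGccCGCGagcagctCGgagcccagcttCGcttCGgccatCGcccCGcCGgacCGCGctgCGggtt
The motif searched was CG, which reads the same on both strands. Tns1 held 37 CG and Tns3 held 33, while 5.58% and 8.56% of the 32851 promoters in the table held at least as many. Tns2 held 2, a count that 85.9% of promoters reached or passed. Stard13 held 12 and Stard8 held 9, against a median of 7, and 94.6% of all promoters held at least 1. Tns1, richest in CG, was nearly silent in these cells, and Tns3, almost as rich, was the most abundant tensin in both groups. The start behind the Tns2 window lies 4.46 kb inside the gene, while those of Tns1 and Tns3 lie within 0.223 kb of the 5′ end of their genes, and the starts for Stard8 and Stard13 lie 39.6 and 238 kb inside. Neither methylation nor the start used in these cells was measured.

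Tns3, which binds integrin β1 and the focal adhesion proteins FAK and p130Cas, was the main tensin of TuBo cells. Mock libraries held 13851, 6960 and 5831 reads of it, and p140Cap libraries 2249, 2286 and 1906. The mean level (± SD, n = 3 libraries each) was 177 ± 3.43 CPM in mock and 148 ± 7.86 CPM in p140Cap cells, with every mock library, at 175 CPM or more, above every p140Cap library, at 156 CPM or less. The fitted log2 fold change was -0.26 (SE 0.05), so the main tensin was lower by a small part of its level. In bulk RNA, fewer cells expressing a gene and less RNA per cell cannot be told apart, here and for all genes that follow.

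Reads of Tns4 numbered 130, 58 and 53 in mock libraries but 724, 745 and 567 in the smaller p140Cap libraries. Its level was 1.70, 1.46 and 1.59 CPM in mock cells and 47.7, 50.7 and 41.6 CPM in p140Cap cells. The groups were far apart, and no mock library reached 2 CPM. The fitted log2 fold change was 4.86 (SE 0.10), a 29.1-fold higher level, and it lay between 4.80 and 4.94 with each library left out in turn. Among the 11800 genes tested, 5 had a higher log2 fold change. With all libraries thinned to the smallest total it was 5.09.

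Tns2, a tensin that is abundant in muscle, kidney and liver, was the second tensin of mock cells. It had 1985, 926 and 893 reads in mock and 435, 462 and 374 reads in p140Cap libraries. The level was 25.9, 23.3 and 26.8 CPM in mock and 28.7, 31.5 and 27.5 CPM in p140Cap cells, so the highest mock library lay just under the lowest p140Cap library. Its log2 fold change was 0.20 (SE 0.07). In GENCODE vM39, Spryd3, with 8167 reads over all libraries, overlaps exons of Tns2 on the other strand. By the RefSeq positions on GRCm38.p6, Spryd3 lies 125 bp from Tns2 without overlap. No source used here states whether reads were counted by strand.

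Tns1, the founding tensin of fibroblasts and muscle, was seen in mock libraries with 4, 3 and 2 reads and in p140Cap libraries with 0 reads each. It was the member that did not pass the filter on low counts. Its pooled level in mock cells was 0.0602 CPM, while 0 reads in the p140Cap libraries allow up to 0.0690 CPM over the group (3 counts, counting error only). A difference in Tns1 was therefore not detectable at this depth.

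**Figure D1:**
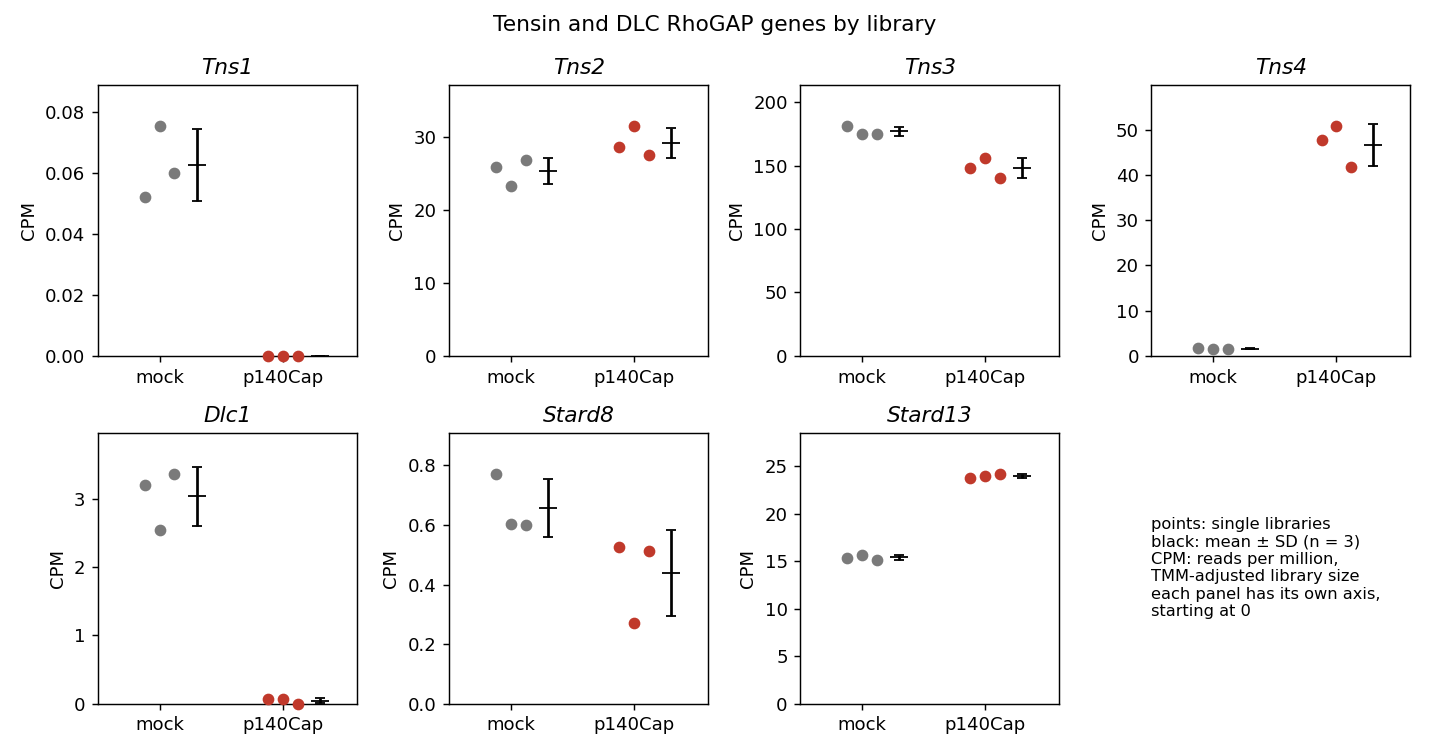
Level of each member in CPM on linear axes that start at 0 and differ between panels. Points are the 3 mock (grey) and 3 p140Cap (red) libraries and black bars are the mean ± SD; Tns4 went from 1.58 to 46.7 CPM and Dlc1 from 3.03 to 0.0447 CPM on average, while Tns2, Tns3 and Stard13 differed less than 2-fold.

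Dlc1 was a rare transcript in mock cells and was all but undetected in p140Cap cells. Mock libraries held 245, 101 and 112 of its reads, against 1, 1 and 0 in p140Cap libraries. The level was 3.20, 2.54 and 3.36 CPM in mock cells and at most 0.0681 CPM in a p140Cap library, where 3 reads would correspond to 0.198 to 0.220 CPM. The pooled reads gave a ratio of mock to p140Cap of 66.5, its 95% exact binomial interval being 18.3 to 551 for counting error only, so its size rests on 2 reads. The fitted log2 fold change, -5.93 (SE 0.44), depends on how such few reads are handled and was -5.41 with limma-voom. Dlc1 left the test when 10 reads were demanded of each library. An annotated lncRNA, Gm63985, lies within Dlc1 on the same strand without sharing exons, and Gm39166 overlaps its exons on the other strand. Neither is among the genes counted.

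Stard13 (DLC2) was the main DLC RhoGAP of both groups. It had 1177, 623 and 503 reads in mock and 360, 351 and 329 reads in p140Cap libraries. The mean level (± SD, n = 3 libraries each) was 15.4 ± 0.280 CPM in mock and 23.9 ± 0.220 CPM in p140Cap cells, the tightest replicates of any member relative to the mean. The lowest p140Cap library, at 23.7 CPM, was far above the highest mock library, at 15.7 CPM. The log2 fold change was 0.64 (SE 0.06), a 1.55-fold higher level, opposite in direction to Dlc1. Gm42906, annotated on the same strand with shared exons, had 0 reads.

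Stard8 (DLC3) was rare throughout, with 59, 24 and 20 reads in mock and 8, 4 and 7 reads in p140Cap libraries. Levels of 0.771, 0.603 and 0.601 CPM in mock and 0.527, 0.272 and 0.514 CPM in p140Cap cells did not overlap, but lay close together. The log2 fold change was -0.64 (SE 0.35). Pooled reads gave a ratio of mock to p140Cap of 1.58, with a 95% exact binomial interval of 0.959 to 2.72 that includes 1, so a difference was not resolved at this depth. With single p140Cap libraries left out, the log2 fold change ranged from -0.80 to -0.39 (the latter without p140Cap replicate 2), and without any 1 of the mock libraries Stard8 did not pass the filter.

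Of the 6 members that passed the filter, 5 were at an adjusted p under 0.05 in the fit across all genes (quasi-likelihood test of edgeR, Benjamini-Hochberg adjustment), 3 of them higher (Tns2, Tns4 and Stard13) and 2 lower (Tns3 and Dlc1) in p140Cap cells. Tns2 was not called without mock replicate 2 or without p140Cap replicate 2, where its log2 fold change was 0.15 in both cases, which left 4 members called. The share of all tested genes called was 71.1%, with 35.2% higher and 35.9% lower, and since the members were chosen from this contrast nothing is read from their count. The groups did not overlap for any of the 6, as for 73.4% of all genes tested.

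Levels of different genes were compared as FPKM, the CPM divided by the exon length in kilobases. In mock cells the order was Tns3 (15.0 ± 0.290 FPKM), Tns2 (4.59 ± 0.333), Stard13 (1.79 ± 0.0325), Tns4 (0.306 ± 0.0233), Dlc1 (0.138 ± 0.0199), Stard8 (0.0927 ± 0.0137) and Tns1 (0.00370 ± 0.000697 FPKM; SD, n = 3 libraries each). No neighbours in this order overlapped between libraries. In p140Cap cells the order was Tns3 (12.5 ± 0.665 FPKM), Tns4 (9.02 ± 0.895), Tns2 (5.29 ± 0.372), Stard13 (2.78 ± 0.0255) and Stard8 (0.0616 ± 0.0202), followed by Dlc1 and Tns1. Tns4 stood behind Tns3, Tns2 and Stard13 in mock cells and behind Tns3 alone in p140Cap cells. Its mean FPKM exceeded that of 49.2% of 21649 genes in mock cells and of 80.7% in p140Cap cells. With the length of the longest transcript in place of all exons, Dlc1 stood above Tns4 in mock cells, at 0.397 and 0.332 FPKM, with overlapping libraries.

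The tensin transcripts summed to 19.9 ± 0.525 FPKM in mock and 26.8 ± 1.91 FPKM in p140Cap cells (SD, n = 3 libraries each), and the groups did not overlap. Without Tns4, the sum was 19.6 ± 0.502 FPKM in mock and 17.8 ± 1.03 FPKM in p140Cap cells. The difference in the family sum was thus carried by Tns4, which was 8.71 FPKM higher, while the difference was -2.46 FPKM for Tns3 and 0.699 FPKM for Tns2. Tns4 made up 1.54 ± 0.0771% of the tensin sum in mock and 33.6 ± 1.06% in p140Cap cells. The share of Tns3 was 75.4 ± 1.27% in mock and 46.7 ± 0.860% in p140Cap cells, and that of Tns2 was 23.1 ± 1.23% and 19.7 ± 0.396%. For each Tns4 transcript, per length, there were 46.7, 52.6 and 48.2 of Tns3 in the mock libraries and 1.36, 1.34 and 1.47 in the p140Cap libraries.

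In the DLC family, the sum was 2.02 ± 0.0244 FPKM in mock and 2.85 ± 0.0317 FPKM in p140Cap cells (SD, n = 3 libraries each). Stard13 accounted for 88.6 ± 1.33% of it in mock and 97.8 ± 0.671% in p140Cap cells. Dlc1 made up 6.85 ± 1.01% in mock and 0.0720 ± 0.0624% in p140Cap cells, and Stard8 4.58 ± 0.631% and 2.16 ± 0.697%. The family sum was therefore higher in p140Cap cells despite the near loss of Dlc1, with a difference of 0.995 FPKM for Stard13 and -0.136 FPKM for Dlc1. With the longest transcript as length, the share of Dlc1 in mock cells was 12.4%.

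**Figure D2:**
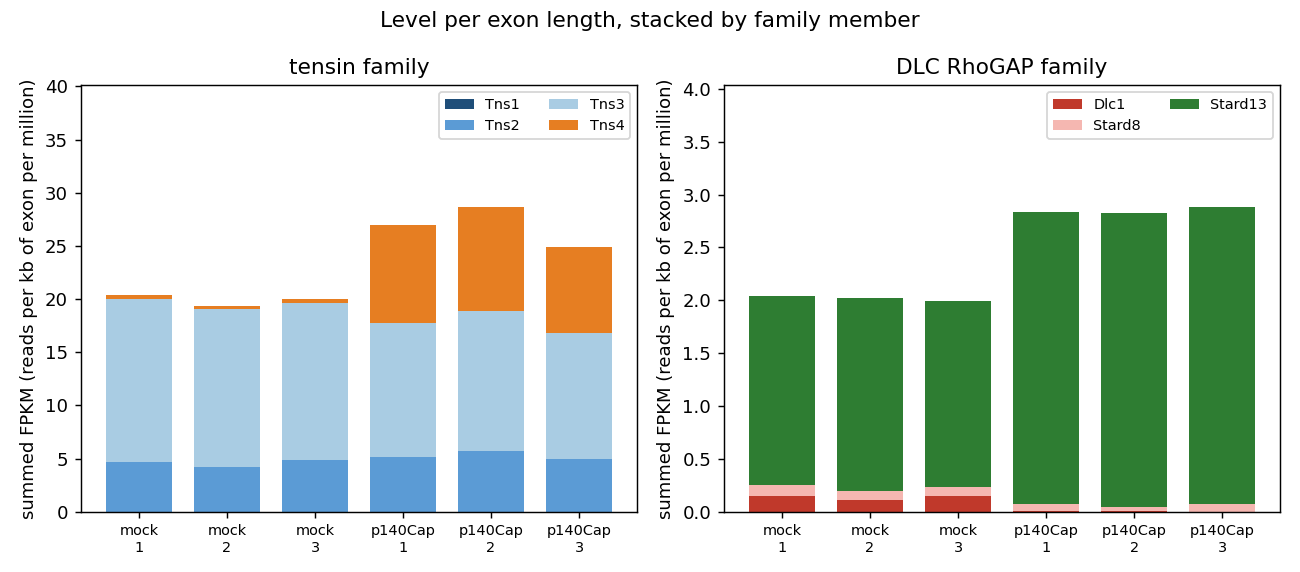
Summed FPKM of the tensins (left) and the DLC RhoGAPs (right) in each library, stacked by gene on axes that start at 0. The tensin sum is 19.9 FPKM on average in mock and 26.8 FPKM in p140Cap cells, where Tns4 adds 9.02 FPKM, and the DLC sum is nearly all Stard13.

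Genes whose levels over the 6 libraries were most like those of a member were found by the root mean square difference of log2 CPM, each gene centred on its own mean. As the libraries form 2 groups, this likeness follows mainly the difference between them. Closest to Tns4 were Zfp217, a zinc finger repressor gene amplified in breast cancers, at 75.8 ± 1.49 CPM in mock and 1744 ± 14.8 CPM in p140Cap cells, and Car9, the hypoxia-induced carbonic anhydrase, at 9.10 ± 0.660 and 158 ± 8.83 CPM (SD, n = 3 libraries each). Their distances from Tns4 were 0.18 and 0.36 log2 units. Closest to Dlc1 were Gas6, the ligand of the Axl receptor, with 1051, 512 and 506 reads in mock and 10, 3 and 2 in p140Cap libraries, and the sialyltransferase gene St6galnac4, with 1176, 593 and 550 reads in mock and 6, 3 and 4 in p140Cap libraries. Their distances were 0.48 and 0.52 log2 units. The log2 CPM used a prior count of 2, and Dlc1 had 1, 1 and 0 reads in the p140Cap libraries. The distances from Dlc1 therefore depend in part on that setting. Tns3 was most like Nfkb1 and Ptpn11, Tns2 like Ptpn23 and Samd4b, and Stard13 like Hif1a and Secisbp2l, all at distances of 0.01 to 0.02 log2 units.

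Genes beside the members on the chromosomes are given as a description. Within 1 Mb of Tns4, 25 genes were tested, and their median log2 fold change was -0.02, from -1.39 for the replication licensing gene Cdc6 to 1.19 for Fbxl20. By edgeR's adjusted p, 11 of them were called higher and 10 lower, or 84.0% in all beside 71.1% of all genes tested. The nearest, Top2a, encodes topoisomerase IIα, lies 41.5 kb away and had a log2 fold change of -0.36 (SE 0.05; edgeR adjusted p = 3.29e-06). Within 1 Mb of Dlc1, 6 genes were tested, with a median of 0.37, and all 6 were called, 5 of them higher and 1 lower. The lowest, Mfhas1, was at -0.77 (SE 0.13). Around the other members, the medians were -0.28 over 2 genes for Tns3, -0.09 over 6 for Stard13, 0.02 over 13 for Tns1, 0.10 over 31 for Tns2 and 0.23 over 4 for Stard8, beside 0.00 over all tested genes. The median around Tns3 changed sign when p140Cap replicate 3 was left out (0.23) and was near 0 without p140Cap replicate 2 (-0.022). That around Tns1 changed sign without p140Cap replicate 2 (-0.021) or mock replicate 1 (-0.00052). Low counts were filtered anew in each of these fits, so the neighbours tested could differ from those counted above. Genes tested numbered 12146 without p140Cap replicate 3 and 12134 without p140Cap replicate 2, against 11800 in the main fit. With single libraries left out, the median around Tns2 ranged from 0.056 (without mock replicate 2; 0.068 without p140Cap replicate 2) to 0.14, that around Stard13 from -0.14 to -0.037 (without p140Cap replicate 2), and that around Tns4 from -0.050 (without p140Cap replicate 2) to -0.0094 (without mock replicate 3).

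**Figure D3:**
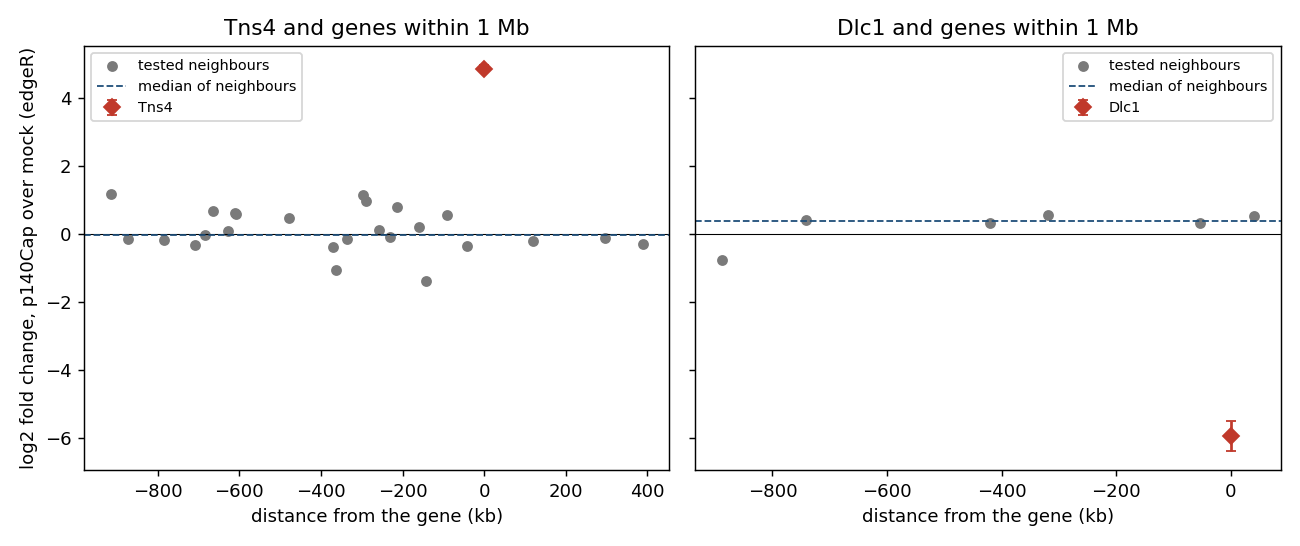
Log2 fold change between p140Cap and mock cells of genes tested within 1 Mb of Tns4 (left) and Dlc1 (right), against the distance from the gene in kb. Red diamonds are the members with their SE, grey points the neighbours, and the dashed line their median, -0.02 around Tns4 and 0.37 around Dlc1.

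Proteins that bind tensins or DLC proteins were read from a list of 22 genes, of which 19 were tested. At an adjusted p under 0.05 (edgeR), 5 (26.3%) were higher and 2 (10.5%) lower, beside 35.2% and 35.9% of all genes tested, and 12 were not called. The median log2 fold change was 0.02. Ptk2b, the FAK-related kinase Pyk2, rose from 46.6 ± 0.428 to 83.5 ± 2.56 CPM (SD, n = 3 libraries each), or by 0.84 in log2 (SE 0.05; edgeR adjusted p = 2.47e-10). Pxn, which encodes the adhesion scaffold paxillin, rose by 0.49 (SE 0.06, adjusted p = 9.50e-07). Cav1, caveolin 1 and a known ligand of the DLC1 START domain, fell from 48.6 ± 2.17 to 19.8 ± 1.52 CPM, with a log2 change of -1.30 (SE 0.07; edgeR adjusted p = 6.41e-11). Met, the HGF receptor that binds Tns4, was at -0.32 (SE 0.05, adjusted p = 2.44e-05).

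Among the receptors and kinases beneath which tensins act, Ptk2 (FAK) was at 0.20 (SE 0.05, adjusted p = 0.000775, edgeR) and Bcar1 (p130Cas, a partner of p140Cap) at 0.26 (SE 0.07, adjusted p = 0.00358, edgeR), the latter at 0.16 without p140Cap replicate 2 (adjusted p = 0.0310). Itgb1, the integrin β1 gene, was at 0.11 (SE 0.05, adjusted p = 0.0334, edgeR), and this call was lost under 7 of 13 alternatives, where its adjusted p ranged from 0.0124 to 0.163 over all of them. Src was at -0.010 (SE 0.06, adjusted p = 0.896, edgeR), a sign that turned without mock replicate 3 (0.033), p140Cap replicate 1 (0.032) or p140Cap replicate 3 (0.020). Egfr, whose activation drives the tensin switch, averaged 12.7 ± 1.48 CPM in the mock group and 14.3 ± 0.415 CPM in the p140Cap group (SD, n = 3 each). Its log2 fold change of 0.17 (SE 0.09) did not pass the test (adjusted p = 0.118, edgeR), although with thinned libraries the adjusted p was 0.0438 and over all alternatives it ranged from 0.0438 to 0.375. Without mock replicate 3 the log2 fold change of Egfr was 0.080.

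RhoA, the main substrate of the DLC proteins, did not pass the test. Rhoa averaged 438 ± 9.01 CPM in the mock group and 448 ± 9.93 CPM in the p140Cap group (SD, n = 3 each; log2 fold change 0.034, SE 0.05, adjusted p = 0.521, edgeR), and the log2 fold change was 0.015 without mock replicate 1 and 0.019 without p140Cap replicate 1. Rhob was at 0.033 (SE 0.07, adjusted p = 0.695, edgeR), with a sign that turned without p140Cap replicate 2 (-0.053) or mock replicate 2 (-0.028). Rhoc, in contrast, rose from 161 ± 11.8 to 239 ± 8.62 CPM, by 0.57 (SE 0.06, adjusted p = 1.05e-07, edgeR).

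Of 42 other RhoGAP genes tested, 18 (42.9%) were higher and 13 (31.0%) lower (8 lower with thinned libraries), beside 35.2% and 35.9% of all genes, with a median of 0.085. Arhgap29, a RhoA-directed GAP, rose from 9.95 ± 0.261 to 27.0 ± 2.94 CPM (log2 fold change 1.44, SE 0.08, adjusted p = 1.63e-10, edgeR), and Fam13a rose by 1.30 (SE 0.08). Arhgap31, which acts on Rac1 and Cdc42, fell by 1.09 (SE 0.09) and Syde2 by 0.99 (SE 0.08; adjusted p = 8.63e-09, edgeR).

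RhoGEF genes, whose products load RhoA and related GTPases with GTP and so oppose the DLC proteins, were more often higher than lower. Of 40 tested, 23 (57.5%) were higher and 5 (12.5%) lower at an adjusted p under 0.05 (edgeR), with a median log2 fold change of 0.25, beside 35.2% and 35.9% of all genes. Arhgef38 rose from 11.2 ± 0.215 to 34.9 ± 3.31 CPM (log2 fold change 1.64, SE 0.07, adjusted p = 1.47e-11, edgeR) and Plekhg6 from 5.44 ± 0.409 to 13.5 ± 1.41 CPM (1.31, SE 0.10). Arhgef10 fell by 1.16 (SE 0.07) and the Rac activator gene Tiam1 by 0.99 (SE 0.08). The number of lower genes was 3 without p140Cap replicate 3.

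A list around the transcription factor SRF held 19 tested genes, namely Srf, its actin-sensing coactivators Mkl1 and Mkl2, known target genes, and Itgb1bp1, an inhibitor of integrin β1 that is not a typical target. Of these, 2 (10.5%) were higher and 9 (47.4%) lower (edgeR), beside 35.2% and 35.9% of all genes, with a median of -0.21. Filip1l fell by 0.55 (SE 0.07, adjusted p = 2.78e-06) and Flna, filamin A, from 1024 ± 66.1 to 739 ± 38.2 CPM (log2 fold change -0.47, SE 0.06, adjusted p = 1.09e-06, edgeR). Vcl, vinculin, rose by 0.32 (SE 0.06, adjusted p = 6.33e-05) and the coactivator gene Mkl2 by 0.18 (SE 0.05, adjusted p = 0.00640, edgeR). The lowest gene was Ctgf, a secreted matricellular protein gene of low level, named after its values were seen, with 148, 84 and 69 reads in mock and 6, 6 and 4 in p140Cap libraries (log2 fold change -2.45, SE 0.27, adjusted p = 4.08e-07, edgeR). The lower genes also include Srf and Itgb1bp1, so neither the higher nor the lower count is of target genes alone. No list was tested as a set.

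**Figure D4:**
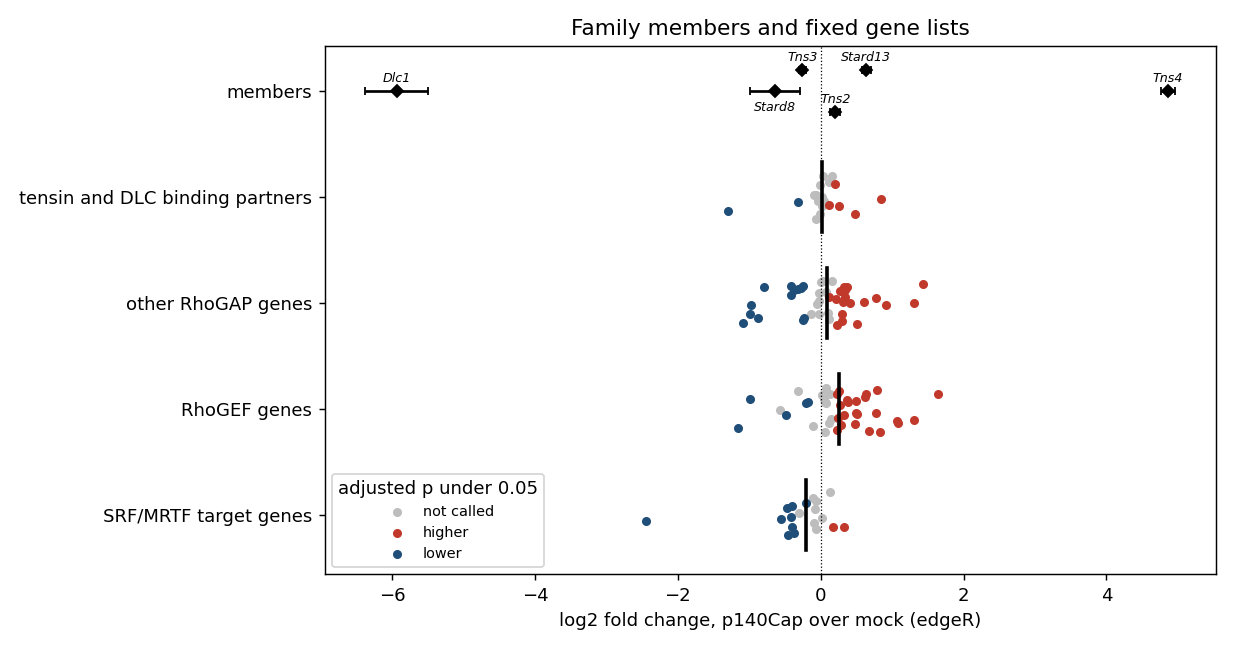
Log2 fold change between p140Cap and mock cells of the 6 tested members (diamonds with SE) and of each tested gene of 4 lists (points; red higher, blue lower at an adjusted p under 0.05, grey not called), with the median of each list as a bar and that of all genes as a dotted line. Tns4 stands at 4.86 and Dlc1 at -5.93, the values for which the families were chosen, and the list medians lie between -0.21 and 0.25.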

How the data were processed

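The RNA-Seq data comprised 6 TuBo libraries, 3 of mock and 3 of p140Cap cells. Following the paper, TruSeq Stranded libraries were sequenced on a NextSeq 500. The authors deposited counts, whole numbers of reads on 21960 genes per library, without normalization. The submitters' processing notes name STAR 2.5, RSEM 0.1.1 and mm10, while the paper names GRCm39. The annotation and any rounding are not stated there.

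Counts were analysed in R 4.3.3 with TMM factors, filterByExpr and the quasi-likelihood test of edgeR 4.0.16 on 11800 genes, with a group term alone and calls at a Benjamini-Hochberg adjusted p under 0.05. SE values were derived from the size of each log2 fold change and its F statistic. Intervals are 95% exact binomial intervals on pooled reads. The fit was tested on simulated counts. Exon lengths came from GENCODE vM39, which 98.6% of genes matched, and positions from RefSeq GRCm38.p6 by symbol (97.1%).

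The members and lists were chosen with earlier results of these data known. Genes named are the members, Srcin1, 9 fixed genes of adhesion and RhoA signalling, up to 2 called genes per direction in each of 4 lists (mean log2 CPM of at least 1, no overlap between groups), and for likeness the 2 closest genes of each member above the same level. Marker genes, neighbours and overlapping genes, Srf, Mkl1, Ctgf and Itgb1bp1 were named after their values were seen. Alternatives were DESeq2 1.42.0, limma-voom (limma 3.58.1), RLE factors, 2 other filters on low counts, each library left out, the replicate number as a block, thinned libraries, another gene length and a window of 500 kb. Leaving out libraries for the neighbours was added after seeing the data. Results of 2 further gene lists are not reported here.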

Additional observations from a re-analysis of the deposited data

How the results depend on the processing

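No member changed the sign of its log2 fold change under the alternatives that kept it. Members called numbered 4 against 5 without mock replicate 2 or p140Cap replicate 2, where Tns2 lost its call, and with at least 10 reads in every library, which removed Dlc1 and Stard8. Stard8 also left the test without each mock replicate and when thinned. Thinning to the smallest total gave 5.09 for Tns4 and 0.60 for Stard13, no filter on low counts gave 0.61 for Stard13, and limma-voom gave -5.41 for Dlc1. Thinning also left 8 other RhoGAP genes called lower against 13, with 11507 genes tested against 11800. Genes called numbered 7180 thinned and 8716 without a filter on low counts. No pairing by replicate number was seen, as same-numbered libraries had correlations of -0.03, -0.11 and -0.06 between their deviations from the group means. With 3 libraries per group, these values cannot show that the libraries were unpaired. The replicate block gave 8034 genes called against 8388, and Itgb1 was not called (adjusted p = 0.0695, edgeR).

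With single libraries left out, called lower RhoGEF genes ranged from 3 to 6, the median of the neighbours of Tns3 from -0.31 to 0.23 and of Tns1 from -0.021 to 0.049, Src from -0.093 to 0.033 and Rhob from -0.053 to 0.10. A window of 500 kb gave medians of 0.17 around Tns2, -0.11 around Tns4 and -0.27 around Stard13. With the longest transcript as length, mock shares were 18.9% for Tns2, 79.9% for Tns3, 1.19% for Tns4, 12.4% for Dlc1, 3.50% for Stard8 and 84.1% for Stard13, and p140Cap shares were 17.6%, 54.1% and 28.3% for Tns2, Tns3 and Tns4 and 0.138% for Dlc1. Thinned mock shares were 0.0368% for Tns1, 1.33% for Tns4, 5.57% for Dlc1 and 5.29% for Stard8. The cause of these moves was not tested beyond the settings themselves.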

Other observations

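The DLC RhoGAPs were a small part of the RhoGAP transcripts of TuBo cells. Over 55 RhoGAP genes with an exon length, the 3 DLC genes included, summed levels were 252 ± 5.11 FPKM in mock and 263 ± 5.36 FPKM in p140Cap cells (SD, n = 3 per group). The DLC genes made up 0.803 ± 0.00857% of this sum in mock and 1.08 ± 0.0344% in p140Cap cells, with no overlap between the libraries. Stard13 stood at position 32 in mock and 28 in p140Cap cells, while Dlc1 stood at 43 and 48. Arhgap35, which encodes p190RhoGAP, was the most abundant in both groups, at 30.3 ± 1.06 FPKM in mock and 29.9 ± 0.952 FPKM in p140Cap cells. Racgap1, a RhoGAP of cytokinesis, was at 24.1 ± 0.158 FPKM in mock and 20.3 ± 0.162 FPKM in p140Cap cells. These genes were named after their values were seen, and transcript levels do not measure GAP activity.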
